A study of Mus musculus with 42 samples.

Results

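The genes described here encode the enzymes that attach glucuronic acid, sulphate or glutathione to drugs, hormones and waste products. They were all autosomal protein-coding genes of GENCODE vM21 (mm10) whose symbol begins with Ugt1a, Ugt2, Ugt3 or Sult, or with Gst followed by a letter and a digit. This rule, which used no measured value, gave 64 of 20807 autosomal protein-coding genes. Of these, 21 were UDP-glucuronosyltransferases (Ugt), 21 sulfotransferases (Sult) and 22 glutathione transferases (Gst). The measurement was chromatin immunoprecipitation and sequencing (ChIP-seq) of lamin B1 (LMNB1), a protein of the nuclear lamina, which yields lamina-associated domains (LADs), long stretches of chromatin in contact with this protein. Livers came from wild-type C57Bl/6 mice with no transgene or deletion, whose sex is given as female in one label and male in another. Non-synchronized (NS) mice were killed before food was withdrawn. The other mice fasted for 24 h and were refed at circadian time 0 (CT0), and their livers were taken at CT0, CT6, CT12, CT18, CT24 and CT30. Each of these 7 time points had LADs from 2 mice, called here mouse 1 and mouse 2 after the replicate numbers of the labels, which makes 14 libraries. Each library was made from a whole piece of liver, so a LAD that is absent in a fraction of the cells and a change in the makeup of the tissue cannot be told apart.

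Glucuronidation, sulphation and glutathione conjugation are the main reactions of phase II metabolism, in which the liver makes lipophilic compounds soluble enough for bile or urine. Ugt enzymes sit in the membrane of the endoplasmic reticulum and use UDP-glucuronic acid, Sult enzymes are cytosolic and take sulphate from PAPS, and Gst enzymes join the thiol of glutathione to reactive electrophiles. The genes of each family arose largely by tandem duplication, so many stand side by side in clusters, and neighbours in a cluster share one LAD call and are not replicates of each other. A gene inside a LAD is typically silent or weakly transcribed, although transcript levels were not analysed here.

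A gene was counted as inside a LAD of a library where its start site lay within one of that library's intervals, and otherwise its distance was that from the start site to the nearest interval. The libraries held 86 to 341 LADs that covered 333 to 652 Mb of the autosomes, with the least in NS mouse 1. LAD borders fell on a grid whose bin ranged from 4 kb (NS mouse 2 and CT0 mouse 2) to 61 kb (NS mouse 1), and a wide bin went with few LADs. The deposited intervals carry no score or read count. The depth behind a LAD can therefore not be read from them, and the error given here is the spread between 2 mice. Repeated LAD calling on the same reads also varies, which single intervals do not show, so distances of some kb to a border have an error that is not included. Nothing in the labels says that the 2 livers were processed apart, so p-values measure the spread between these samples. The names of the deposited libraries carry another number, which differs from the replicate number in 3 libraries and whose meaning is not stated. The 6 libraries with number 1 had bins of 14 to 61 kb, the 5 with number 2 bins of 6 to 46 kb, and the 3 with number 3 bins of 4 to 5 kb, and whether the number marks a batch is not known. The liver label itself could not be checked against marker genes with LAD intervals.

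The share of transferase genes inside a LAD in at least 1 library was below that of all genes. The share within 1 Mb in at least 1 library, which includes the genes inside, was above that of all genes. The start site lay inside a LAD in at least 1 of the 14 libraries for 8 of the 64 genes (12.5%), beside 17.1% of all autosomal protein-coding genes. The start sites of all 8 were outside a LAD in at least 10 of the libraries. In every library the count was 0 of 64, beside 0.875% of all genes. The 8 genes were inside in some but not all libraries, beside 16.2% of all genes. Over genes and libraries, 19 of 896 pairs (2.12%) were inside a LAD, beside 8.06% over all genes. Within 1 Mb of a LAD in at least 1 library lay 38 of the 64 genes (59.4%), beside 40.9% of all genes. Within 1 Mb in every library lay 0 of the 64, beside 2.79%. The median of the genes' median distances to a LAD was 1.53 Mb for the transferase genes and 3.71 Mb for all genes. These shares describe where the genes lie, and since the genes come in 21 clusters no test was made on them.

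The families differed in these counts. Of the Ugt genes, 0 of 21 were inside a LAD in any library, of the Sult genes 6 of 21 (28.6%), and of the Gst genes 2 of 22 (9.09%). The median of the median distances was 3.99 Mb for Ugt, 1.02 Mb for Sult and 2.19 Mb for Gst genes. Of the 21 clusters (runs of genes of one family with start sites at most 1 Mb apart), 12 held several genes and 9 a single gene. All 8 genes that reached a LAD belonged to 4 clusters of 2 or 3 genes, namely Sult1 on chromosome 5, Sult3 on chromosome 10, Sult1 on chromosome 17 and Gsto on chromosome 19.

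**Figure D1:**
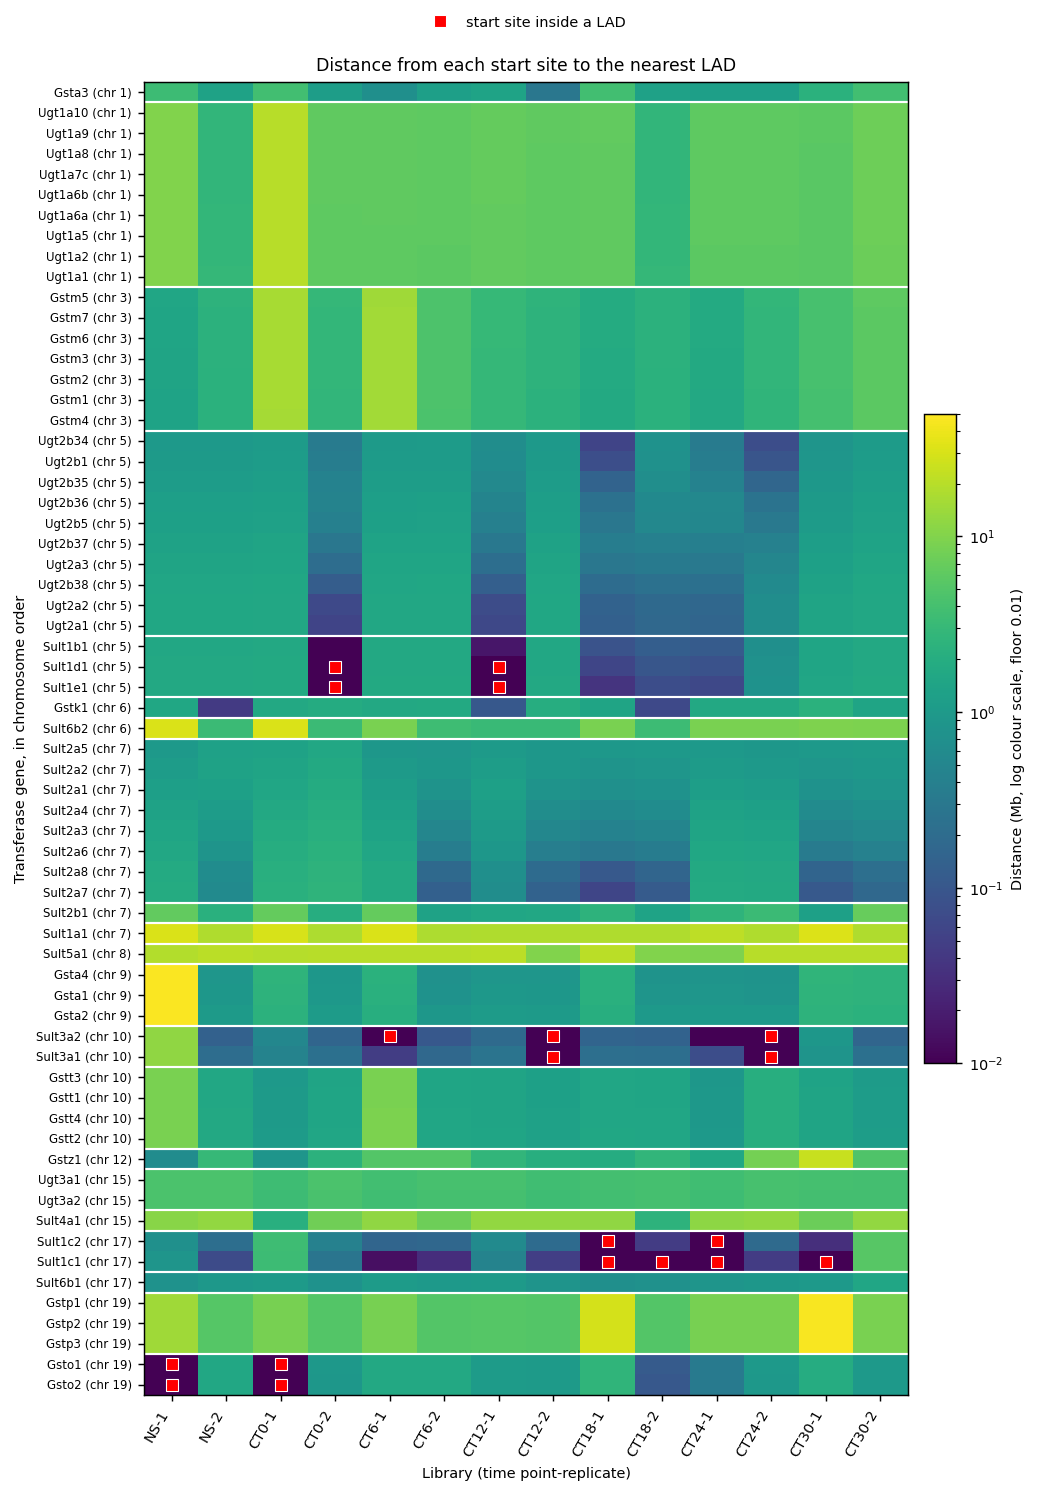
Distance in Mb from the start site of each of the 64 genes (rows, in chromosome order, with white lines between clusters) to the nearest LAD in each of the 14 libraries (columns), on a log colour scale with a floor of 0.01 Mb. Red squares mark start sites inside a LAD, which are 19 gene and library pairs in 8 genes of 4 clusters, and the genes of a cluster share nearly the same colour within a library.

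Counts per library were low in every mouse. In NS, 2 and 0 transferase genes (mouse 1 and mouse 2) were inside a LAD, beside 4.18% and 8.28% of all genes. At CT0 the counts were 2 and 2 (5.54% and 8.62% of all genes), at CT6 1 and 0 (7.30% and 10.2%), and at CT12 2 and 2 (8.51% and 9.85%). At CT18 they were 2 and 1 (9.79% and 10.8%), at CT24 2 and 2 (9.48% and 8.20%), and at CT30 1 and 0 (6.31% and 5.79%). The most that any library held was thus 2 of 64, or 3.12%, which was below the share of all genes in each of the 14 libraries. The counts within 1 Mb of a LAD moved over a wider range, from 5 of 64 (7.81%) in CT0 mouse 1 to 32 of 64 (50.0%) in CT18 mouse 2. Both mice of CT18 (26 and 32 genes) and both of CT24 (28 and 24) had higher counts than any of the NS and CT6 mice (7, 12, 6 and 16). The shares of all genes overlapped, with 21.5% and 33.8% at CT18 and 23.5% and 19.9% at CT24. In NS they were 9.99% and 25.0%, and at CT6 17.3% and 28.2%. The 10 Ugt2 and 3 Sult1 genes of chromosome 5, which are neighbours, were all within 1 Mb in each mouse of CT18 and CT24. In NS and CT6 all of them lay farther away. The 2 mice of CT0 held 5 and 22 (13.1% and 25.2% of all genes). The 2 of CT12 held 23 and 16 (25.0% and 25.8%), and the 2 of CT30 held 16 and 11 (16.5% and 14.4%). The share of all genes within 1 Mb went from 9.99% in NS mouse 1 to 33.8% in CT18 mouse 2.

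**Figure D2:**
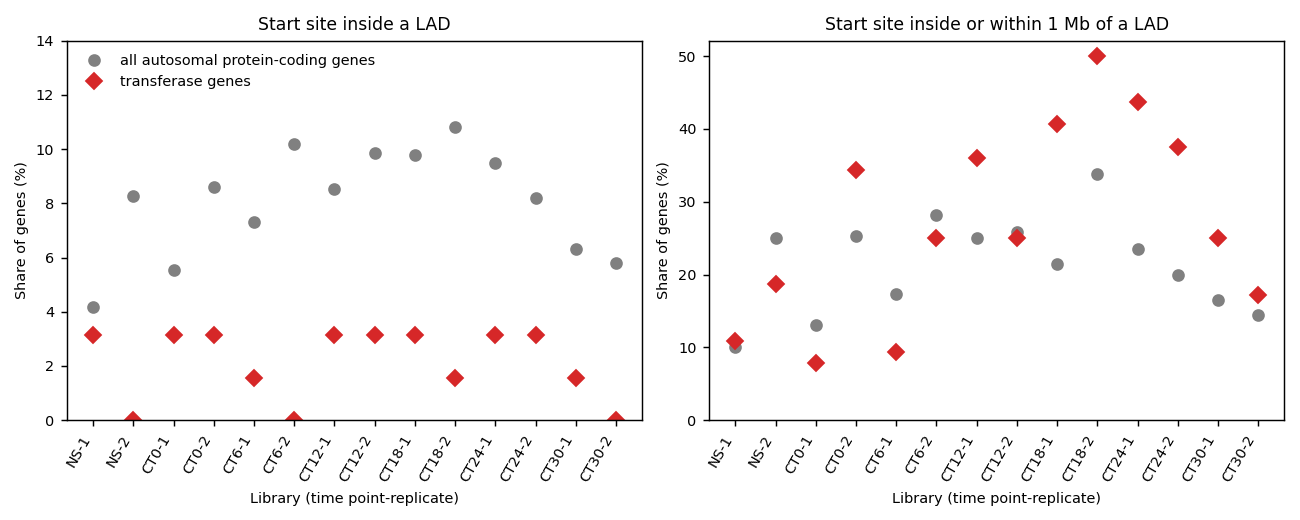
Share of genes (%) inside a LAD (left) and inside or within 1 Mb of a LAD (right) in each library, for the 64 transferase genes (red diamonds) and all 20807 autosomal protein-coding genes (grey circles). Inside a LAD the red points stay at or below 3.12% and under the grey point of the same library. Within 1 Mb they range from 7.81% to 50.0%. There they lie above the grey point in both mice of CT18, CT24 and CT30, and in NS mouse 1, CT0 mouse 2 and CT12 mouse 1. In the other libraries they lie below it.

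Taking only base pairs covered in both mice of a time point, 1 transferase gene was inside a LAD at 1 of the 7 time points. This was Sult1c1 at CT18, beside 7.79% of all genes in that intersect. The count was 0 in the intersects of NS (2.45% of all genes), CT0 (3.93%), CT6 (6.21%), CT12 (7.49%), CT24 (6.88%) and CT30 (4.57%). In the union of both mice, 2 transferase genes were inside in NS (10.0% of all genes), 4 at CT0 (10.2%), 1 at CT6 (11.3%), 4 at CT12 (10.9%) and 2 at CT18 (12.8%). The union held 4 at CT24 (10.8%) and 1 at CT30 (7.54%). Apart from Sult1c1 at CT18, each gene inside a LAD was thus inside in 1 of the 2 mice of its time point.

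Promoters of genes that reach or adjoin a LAD are shown first, because the LAD state was read at their start sites. They were chosen as 1 gene for each of 3 of the clusters that reach a LAD, with a RefSeq start site close to the GENCODE one, and all 3 genes of the Sult1 cluster of chromosome 5, where the LAD border falls between genes. Sult3a2, Sult1c2 and Gsto2, which were also inside a LAD, are not shown. Each run is the 250 bases before the RefSeq start site on GRCm38.p6 (mm10), 5′ to 3′ along the strand of the gene, and capitals mark runs of at least 6 A or T. The promoters are those of Sult1b1 (chr5:87538196-87538445, minus strand), Sult1d1 (chr5:87569007-87569256, minus), Sult1e1 (chr5:87591612-87591861, minus), Sult3a1 (chr10:33857472-33857721, plus), Sult1c1 (chr17:53990632-53990881, minus) and Gsto1 (chr19:47854723-47854972, plus).
Sult1b1: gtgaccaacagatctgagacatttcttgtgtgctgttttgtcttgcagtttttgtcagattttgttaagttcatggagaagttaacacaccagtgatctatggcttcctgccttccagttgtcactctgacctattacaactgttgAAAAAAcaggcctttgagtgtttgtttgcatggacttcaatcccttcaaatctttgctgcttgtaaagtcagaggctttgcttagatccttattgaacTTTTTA
Sult1d1: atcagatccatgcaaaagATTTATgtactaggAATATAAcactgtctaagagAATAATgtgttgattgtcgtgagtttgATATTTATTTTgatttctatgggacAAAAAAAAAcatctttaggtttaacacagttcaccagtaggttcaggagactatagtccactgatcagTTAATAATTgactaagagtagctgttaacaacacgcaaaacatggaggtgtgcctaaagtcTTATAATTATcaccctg
Sult1e1: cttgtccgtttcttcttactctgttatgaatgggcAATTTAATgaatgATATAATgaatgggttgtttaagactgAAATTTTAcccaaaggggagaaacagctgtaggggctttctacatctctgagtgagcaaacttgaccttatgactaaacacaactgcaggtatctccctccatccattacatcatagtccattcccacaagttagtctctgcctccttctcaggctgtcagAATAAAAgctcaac
Sult3a1: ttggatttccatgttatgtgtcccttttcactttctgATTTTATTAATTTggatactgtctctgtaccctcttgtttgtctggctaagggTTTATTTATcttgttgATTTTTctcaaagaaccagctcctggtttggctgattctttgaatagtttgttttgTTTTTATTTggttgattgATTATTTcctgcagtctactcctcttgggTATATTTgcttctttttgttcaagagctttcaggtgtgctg
Sult1c1: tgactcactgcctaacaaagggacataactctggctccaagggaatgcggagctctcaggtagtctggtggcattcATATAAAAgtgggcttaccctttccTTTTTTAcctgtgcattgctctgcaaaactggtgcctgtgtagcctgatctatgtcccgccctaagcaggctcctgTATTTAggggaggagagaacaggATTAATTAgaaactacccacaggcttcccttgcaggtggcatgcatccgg
Gsto1: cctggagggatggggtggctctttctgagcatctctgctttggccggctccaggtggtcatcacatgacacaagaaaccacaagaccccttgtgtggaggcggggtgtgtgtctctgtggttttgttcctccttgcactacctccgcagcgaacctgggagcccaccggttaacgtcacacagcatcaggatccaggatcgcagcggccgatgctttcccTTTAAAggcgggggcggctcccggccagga
The share of A and T was 60.8% for Sult1b1, 66.0% for Sult1d1, 59.2% for Sult1e1, 64.4% for Sult3a1, 50.0% for Sult1c1 and 40.0% for Gsto1. Sult1d1 held 7 such runs and Sult3a1 6, whereas Gsto1 held 1. The RefSeq start sites of these 6 genes lay 0 to 43 bases from the GENCODE start sites used for the distances.

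The Sult1 cluster of chromosome 5 lay at the edge of a short LAD that was present in 5 of 14 libraries. It holds Sult1b1 (chr5:87513339-87538195), which sulphates thyroid hormones, Sult1d1 (chr5:87554645-87569027), which acts on catecholamines and other phenols, and Sult1e1 (chr5:87575969-87591594), the estrogen sulfotransferase. All 3 are on the minus strand, and the start sites span 53.4 kb. The distance of Sult1d1 to a LAD was 1.68 and 1.68 Mb in NS, 1.75 and 0 Mb at CT0, 1.71 and 1.73 Mb at CT6, and 0 and 1.67 Mb at CT12. It was 0.059 and 0.097 Mb at CT18, 0.085 and 0.737 Mb at CT24, and 1.51 and 1.73 Mb at CT30. The gene was inside a LAD in CT0 mouse 2 and CT12 mouse 1, near one in 3 further libraries, and over 1.5 Mb away in 8.

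Sult1e1 was inside in the same 2 libraries, and Sult1b1 stopped short of the LAD, with 9.81 kb to its edge in CT0 mouse 2 and 16.8 kb in CT12 mouse 1. The LAD ran over chr5:87548001-88344000 (0.796 Mb) in CT0 mouse 2 and chr5:87555001-88285000 (0.730 Mb) in CT12 mouse 1. In CT18 mouse 1, CT18 mouse 2 and CT24 mouse 1 its edge lay 0.036, 0.074 and 0.062 Mb beyond the start site of Sult1e1. The border thus fell between the start sites of Sult1b1 and Sult1d1 in 2 libraries and beyond Sult1e1 in 3. The bins of the 5 libraries with the LAD ranged from 4 to 19 kb and those of the 9 without from 4 to 61 kb. On the far side, Csn1s1, a milk casein gene 74.6 kb beyond the cluster, was inside the LAD in the same 5 libraries. On the near side, Gm43638 was inside in 0 libraries.

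The Sult3 genes of chromosome 10 lay inside or within 0.2 Mb of a LAD in 11 libraries for at least 1 of the pair. Sult3a2 (chr10:33766424-33786704, minus strand) and Sult3a1 (chr10:33857721-33879532, plus strand) belong to a subfamily described for the N-sulphation of amines. Sult3a2 was 12.2 and 0.139 Mb from a LAD in NS, 0.523 and 0.163 Mb at CT0, 0 and 0.105 Mb at CT6, and 0.192 and 0 Mb at CT12. Its distance was 0.157 and 0.145 Mb at CT18, 4.70 kb and 0 at CT24, and 0.902 and 0.161 Mb at CT30. The gene was inside a LAD in 3 libraries, within 0.2 Mb in 8 further ones, and beyond that in NS mouse 1, CT0 mouse 1 and CT30 mouse 1.

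Sult3a1 was inside in CT12 mouse 2 and CT24 mouse 2, where a single LAD of 4.97 Mb (chr10:31770001-36740000) and of 4.77 Mb (chr10:31914001-36684000) ran over both genes. In CT6 mouse 1 the LAD (chr10:31640001-33810000) ended between the start sites of Sult3a2 and Sult3a1, so that Sult3a1 was 47.7 kb outside. In 8 further libraries the pair had a LAD within 0.2 Mb on one side, and in NS mouse 1 the nearest LAD was over 12 Mb away. The 11 libraries with a LAD before or over the cluster at most 0.2 Mb away had bins of 4 to 46 kb, and the 3 without had bins of 31 to 61 kb. Whether the bin plays a part in this was not tested. Clvs2, 162 kb before the cluster, was inside a LAD in 9 libraries, and Rsph4a, a cilium gene 47.4 kb after it, in CT12 mouse 2 and CT24 mouse 2 only.

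The Sult1c genes of chromosome 17 held the transferase gene most often inside a LAD. Sult1c2 (chr17:53829637-53846339) and Sult1c1 (chr17:53961615-53990674) are phenol sulfotransferases on the minus strand. Sult1c1 was 0.860 and 0.0693 Mb from a LAD in NS, 3.40 and 0.277 Mb at CT0, 14.3 and 30.3 kb at CT6, and 0.444 and 0.0493 Mb at CT12. It was inside in both mice at CT18 and in mouse 1 of CT24 and of CT30, while mouse 2 was 45.3 kb away at CT24 and 5.40 Mb away at CT30. In all it was inside in 4 libraries, with a median distance of 47.3 kb over the 14.

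Sult1c2 was inside in CT18 mouse 1 and CT24 mouse 1, and its median distance was 0.192 Mb. In these libraries LADs of 3.14 Mb (chr17:51566001-54705270) and 3.82 Mb (chr17:50890001-54705270) covered both genes. In CT18 mouse 2 (chr17:53892001-54705270) and CT30 mouse 1 (chr17:53878001-54705270) the LAD began between the pair and covered Sult1c1 alone. All 4 LADs ended at the same base, and so did the LAD there in each of the 11 libraries that had one over or within 0.5 Mb after the cluster. In each, a piece of 0.00493 Mb began 0.716 Mb from the start site of Sult1c1, and a longer LAD began just after this piece. The lengths of 3.14 and 3.82 Mb thus run only up to a break shared by these libraries. A LAD lay over or within 0.5 Mb after the cluster in 11 libraries with bins of 4 to 35 kb, and in 3 with bins of 46 to 61 kb (NS mouse 1, CT0 mouse 1 and CT30 mouse 2) it did not. The part of the bin in this was not tested. Slc5a7, a choline transporter gene 308 kb after the cluster, was inside in 10 libraries, and Sgo1, a cohesin protector gene 157 kb before it, in CT18 mouse 1 and CT24 mouse 1.

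Gsto1 (chr19:47854970-47864790) and Gsto2 (chr19:47865534-47886324), the omega-class transferases that reduce dehydroascorbate, were the only Gst genes inside a LAD in any of the 14 libraries. Gsto1 was 0 and 1.65 Mb from a LAD in NS, 0 and 0.933 Mb at CT0, 1.71 and 1.72 Mb at CT6, and 1.08 and 1.04 Mb at CT12. It was 2.65 and 0.115 Mb away at CT18, 0.333 and 0.961 Mb at CT24, and 1.93 and 0.997 Mb at CT30. Mouse 1 was inside and mouse 2 outside in both NS and CT0, and at later time points both mice were outside.

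Gsto2 was inside in the same libraries, with a median distance of 1.01 Mb. The LADs over the pair were 5.49 Mb long in NS mouse 1 (chr19:47519001-53009000) and 5.12 Mb in CT0 mouse 1 (chr19:47658001-52781000). These libraries had the widest bins of all, 61 and 47 kb, against 4 to 46 kb in the 12 libraries without a LAD there, and the part of the bin was not tested. Sfr1, a recombination gene 123 kb before the pair, and Cfap43, a cilium gene 53.8 kb after it, were inside in the same 2 libraries.

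**Figure D3:**
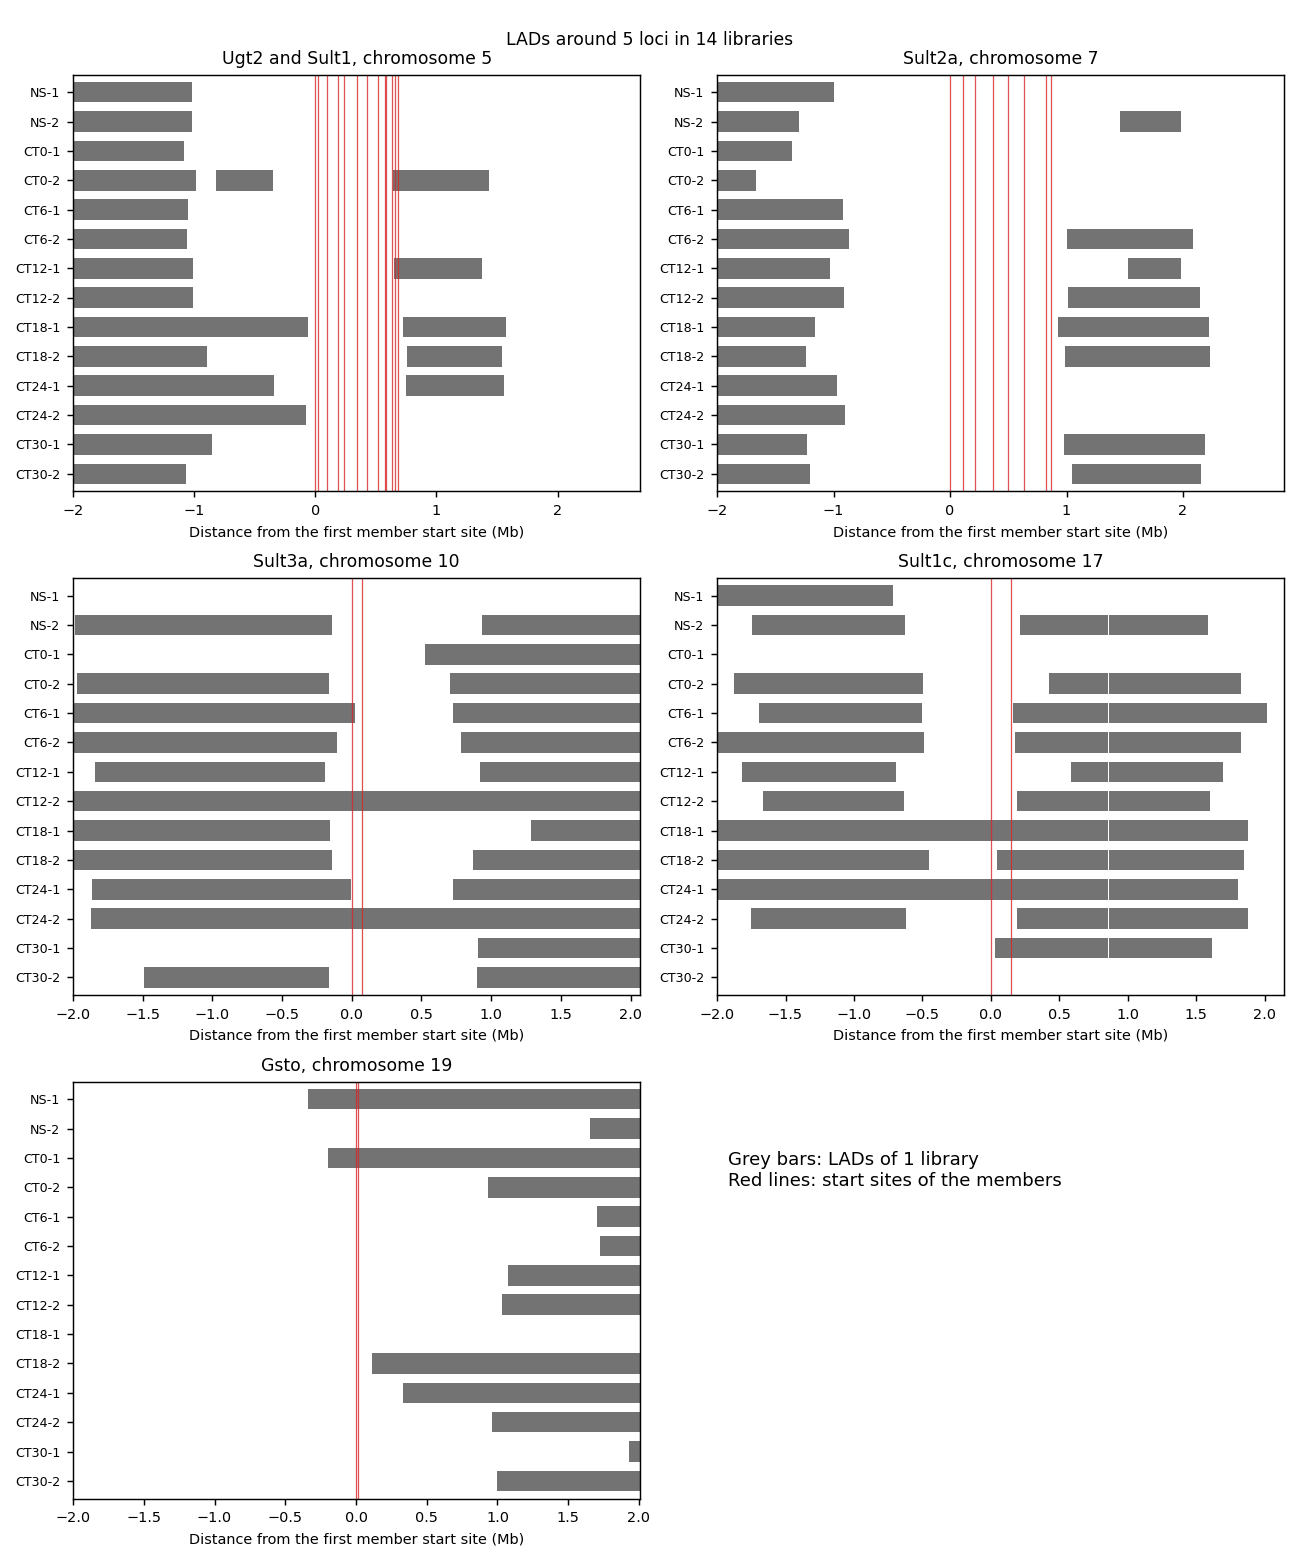
LADs of each of the 14 libraries (grey bars, one row per library) around 5 loci, drawn by distance in Mb from the first start site of a member, with the start sites of the members as red lines. The grey bars reach the red lines in 2 libraries at Sult1 (chromosome 5), 3 at Sult3a, 4 at Sult1c and 2 at Gsto, and leave all Ugt2 and Sult2a start sites uncovered.

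The Sult2a genes of chromosome 7, sulfotransferases of bile acids and of dehydroepiandrosterone, lay in a gap between 2 LADs and were inside in 0 libraries. The 8 genes span 870 kb of start sites, from Sult2a5 (chr7:13623967-13670807) to Sult2a7 (chr7:14465051-14494230). A LAD on the side of Sult2a5 was 0.864 to 1.67 Mb from that gene in every library. A LAD on the side of Sult2a7 was within 1 Mb of that gene in 8 libraries and at least 3.33 Mb away in the other 6. By median distance Sult2a7 was nearest to a LAD (0.623 Mb) and Sult2a4 farthest (1.13 Mb).

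Sult2a7 was 1.87 and 0.590 Mb from a LAD in NS, 2.23 and 2.54 Mb at CT0, 1.79 and 0.136 Mb at CT6, and 0.656 and 0.146 Mb at CT12. Its distance was 0.0598 and 0.116 Mb at CT18, 1.84 and 1.77 Mb at CT24, and 0.107 and 0.180 Mb at CT30. Both mice of CT0 and of CT24 were far from a LAD, both of CT18 and of CT30 were near, and the 2 mice of CT6 differed. In the middle of the cluster, Sult2a4 was 1.36 and 1.09 Mb away in NS, 1.72 and 2.03 Mb at CT0, 1.28 and 0.640 Mb at CT6, and 1.16 and 0.650 Mb at CT12. It was 0.564 and 0.620 Mb away at CT18, 1.33 and 1.26 Mb at CT24, and 0.611 and 0.684 Mb at CT30.

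Per time point, the median distance of the 8 genes was 1.23 ± 0.284 Mb (SD, n = 2 mice) in NS and 1.94 ± 0.220 Mb at CT0. It was 0.963 ± 0.550 Mb at CT6, 0.807 ± 0.316 Mb at CT12 and 0.526 ± 0.0396 Mb at CT18. At CT24 it was 1.37 ± 0.0495 Mb, and at CT30 0.581 ± 0.0516 Mb. CT18, CT24 and CT30 had mice within 0.1 Mb of each other, and the values of CT24 did not overlap those of CT18 or CT30. These time points were not a planned comparison, and the share of all genes without overlap between them was not computed. Whether this separation is unusual can thus not be told. The bins of the 8 libraries with the LAD beyond Sult2a7 ranged from 4 to 46 kb and those of the 6 without from 4 to 61 kb.

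**Figure D4:**
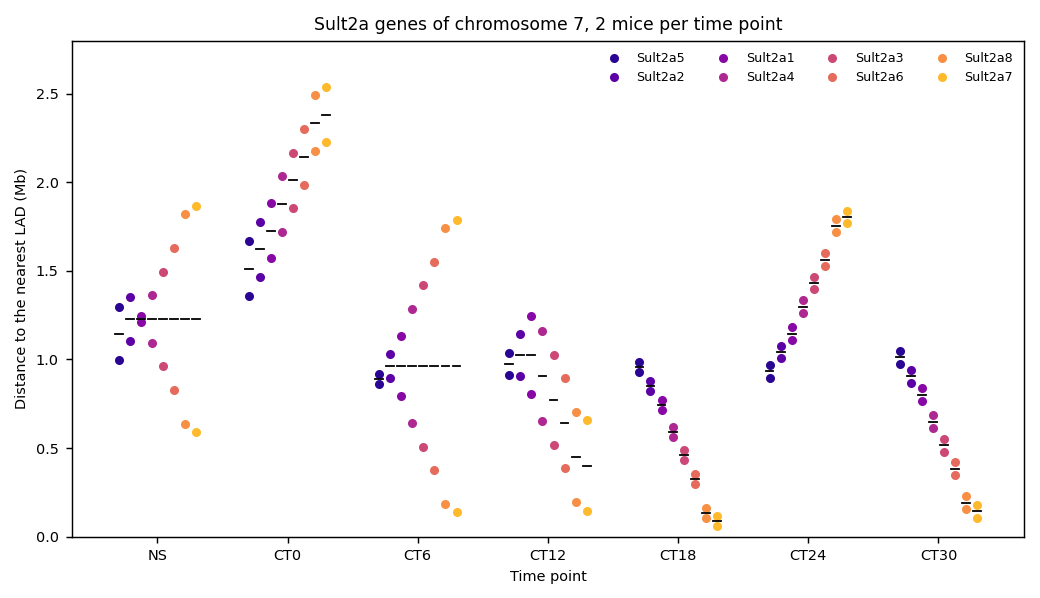
Distance in Mb from the start site of each Sult2a gene of chromosome 7 to the nearest LAD (coloured points, one per mouse, ordered along the chromosome within a time point), with short black lines for the mean of the 2 mice. Both mice fall from Sult2a5 to Sult2a7 at CT18 and CT30 and rise at CT0 and CT24, while the mice of NS and CT6 go opposite ways.

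Because 12 libraries cover the 6 circadian times, each gene's distance was tested for a difference between CTs with an exact permutation test that enumerated the 10395 ways of splitting them into pairs. With Benjamini-Hochberg adjustment over all 20807 genes, the test called 0 genes and 0 transferase genes at 0.05 (0% of all genes), and the lowest adjusted p of any gene was 0.286. Without adjustment, 1119 genes (5.38%) had p under 0.05, and 8 of the 64 transferase genes did. These were the 8 Sult2a genes of chromosome 7, which share their LADs and so count as one locus. The smallest p-values in this exact permutation test were 0.0282 for Sult2a4, 0.0286 for Sult2a3 and 0.0291 for Sult2a2, with an adjusted p of 0.829 for each. They did not pass the adjusted threshold, and leaving out single mice moved the number of Sult2a genes under the unadjusted 0.05 to between 1 and 8. It was 1 without CT18 mouse 1 or CT24 mouse 1 (Sult2a5) and without CT30 mouse 2 (Sult2a2). It was 2, Sult2a5 and Sult2a2, without either CT0 mouse, CT18 mouse 2, CT24 mouse 2 or CT30 mouse 1, and at least 6 without any one of the other mice.

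The next transferase genes in that order, Sult3a2 (p = 0.184) and Sult6b1 (p = 0.184), were well above 0.05 in the same exact permutation test. The state inside or outside a LAD was tested the same way over the 3086 genes whose state varied between the 12 libraries. It called 0 genes (0%) after adjustment and 34 (1.10%) before it, and 0 of the 8 transferase genes in either case. No gene could go below p = 9.62e-05 in the exact permutation test of distance. With adjustment over all autosomal protein-coding genes, a single gene or small locus at this floor could not pass 0.05 by itself. It could pass only if many other genes had low p-values as well. The adjusted test of distance thus cannot decide whether a single locus, such as the Sult2a genes, differs between CTs. The ties put the floor of the state test higher, and above 0.05 for genes inside a LAD in few of the 12 libraries. This held for Sult1d1, Sult1e1, Sult3a1, Sult3a2, Sult1c2, Gsto1 and Gsto2. The state test could not have called them, so it cannot decide whether their state differs between CTs. Among the 8 only Sult1c1 could pass 0.05 before adjustment, and its p was 0.515 (exact permutation test of state).

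The comparison of NS and CT0 sets mice before food was withdrawn against mice at the end of the 24 h fast, at the hour of refeeding, and the hour of the day differs as well. With 2 mice against 2, the exact two-sided permutation test cannot go below p = 0.33, so the values are given as a description. Both CT0 mice were nearer to a LAD than both NS mice for 7 transferase genes (10.9%), beside 11.1% of all genes, namely the 4 Gstt genes, Ugt3a1, Ugt3a2 and Sult4a1. Both were farther for 16 (25.0%), beside 9.09% of all genes, and these were the 7 Gstm genes, Gstk1 and the 8 Sult2a genes, hence 3 loci. Sult2a7 went from a mean of 1.23 ± 0.903 Mb in NS to 2.38 ± 0.220 Mb at CT0 (SD, n = 2). The shares of nearer genes were alike in the transferase genes and in all genes, and the larger share of farther genes rests on 2 clusters and a single gene.

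From CT0 to CT12, 13 transferase genes (20.3%) were nearer to a LAD in both mice without overlap, beside 19.6% of all genes. They were the 8 Sult2a genes, Sult2b1, Sult6b2 and the 3 Gsta genes of chromosome 9. Sult4a1, Gsto1 and Gsto2 were farther (4.69%), beside 9.82% of all genes. Sult2a7 had a mean of 0.401 ± 0.361 Mb at CT12, against the CT0 value above. The CT0 mice enter both of these comparisons. From CT12 to CT30, which shares the CT12 mice, 0 transferase genes were nearer, beside 8.58% of all genes. Farther were 17 (26.6%), beside 45.5% of all genes, among them the Gstm and Gstp clusters and the Gsta genes. The bins of CT12 (5 and 10 kb) were narrower than those of CT30 (31 and 46 kb), and the part of the bin in this was not tested.

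The glucuronosyltransferases were outside LADs in every library. The 9 Ugt1 genes of chromosome 1 share their last exons and differ in their first, so that a single locus yields Ugt1a1, the bilirubin-conjugating enzyme, and its relatives for phenols and drugs. Their start sites span 157 kb and were 2.71 to 20.0 Mb from a LAD. Ugt1a1 was the nearest by median distance (6.04 Mb) and Ugt1a10 the farthest (6.20 Mb), which is a difference set by their positions along the locus. Ugt1a1 was 9.88 and 2.87 Mb from a LAD in NS and 19.8 and 6.06 Mb at CT0. From CT6 to CT30 its distance lay between 2.87 and 7.47 Mb.

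The Ugt2 cluster of chromosome 5, with 10 genes for steroids, bile acids and drugs over 601 kb, adjoins the Sult1 cluster and came much closer to LADs. Ugt2b34 (chr5:86889767-86906937) at one end had the smallest median distance (0.929 Mb) and Ugt2a1 (chr5:87459490-87490871), an enzyme known from olfactory tissue, at the other end the largest (1.51 Mb). Ugt2b34 was 1.02 and 1.02 Mb from a LAD in NS, 1.08 and 0.347 Mb at CT0, 1.05 and 1.06 Mb at CT6, and 0.648 and 1.01 Mb at CT12. Its distance was 0.0579 and 0.759 Mb at CT18, 0.345 and 0.0749 Mb at CT24, and 0.851 and 1.07 Mb at CT30. At CT18 and CT24 all 4 mice were nearer than both mice of NS, CT6 and CT30, whereas the CT0 and the CT12 mice fell on both sides of 1 Mb. The margin was small, with 0.759 Mb in CT18 mouse 2 and 0.851 Mb in CT30 mouse 1. This grouping was not a planned comparison, and the share of all genes that show it was not computed.

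Ugt2a1 faces the short LAD over the Sult1 genes and was 57.1 kb from it in CT0 mouse 2 and 64.1 kb in CT12 mouse 1. The cluster thus had LADs approaching from both sides without any of its start sites falling inside. Its median distance was 0.323 ± 0.205 Mb at CT18 and 0.360 ± 0.00766 Mb at CT24, against 1.31 ± 0 Mb in NS, 1.35 ± 0.00778 Mb at CT6 and 1.25 ± 0.156 Mb at CT30 (SD, n = 2). At CT0 it was 0.848 ± 0.746 Mb and at CT12 0.828 ± 0.665 Mb, where the 2 mice differed by more than the mean. In the test between CTs the unadjusted p of the Ugt2 genes ranged from 0.191 to 0.541 (exact permutation test). Ugt3a1 and Ugt3a2 on chromosome 15, which use sugars other than glucuronic acid, were 3.45 to 4.51 Mb from a LAD in every library.

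Among the glutathione transferases, the Gstm and Gstp clusters were far from LADs and the Gsta cluster of chromosome 9 moved with a single LAD call. The 7 mu-class Gstm genes of chromosome 3 were 1.39 to 16.3 Mb from a LAD. Gstm4 was the nearest (median 2.68 Mb) and Gstm5 the farthest (2.83 Mb). Gstm4 was 1.39 and 2.28 Mb away in NS, 16.1 and 2.73 Mb at CT0, 15.2 and 4.54 Mb at CT6, and 1.70 to 5.81 Mb later. The 3 pi-class Gstp genes of chromosome 19 were 5.08 to 45.7 Mb away, with Gstp3 nearest (median 8.78 Mb) and Gstp1 farthest (8.80 Mb).

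The alpha-class genes Gsta4, which clears lipid peroxidation products, Gsta1 and Gsta2 span 173 kb of chromosome 9. A LAD stood before Gsta4 at 0.732 to 0.895 Mb in 8 libraries, with bins of 4 to 18 kb, and was absent from that position in the 6 libraries with bins of 19 to 61 kb. In those the nearest LAD was over 2 Mb away, and in NS mouse 1 Gsta4 was 47.3 Mb from one. Gsta4 was the nearest by median (0.891 Mb) and Gsta2 the farthest (1.06 Mb). The presence of this LAD followed the bin of the library without overlap. The median distance of the cluster was 2.35 Mb over the libraries named 1 and 0.922 Mb over those named 2 or 3, and the part of the bin or of the name number was not tested.

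The 4 theta-class Gstt genes of chromosome 10 were 0.909 to 9.20 Mb from a LAD, with Gstt3 nearest (median 1.48 Mb) and Gstt2 farthest (1.54 Mb). Gstk1 of chromosome 6, the kappa-class enzyme of mitochondria and peroxisomes, came to 41.9 kb in NS mouse 2, 65.9 kb in CT18 mouse 2 and 0.106 Mb in CT12 mouse 1. It was 1.44 to 2.27 Mb away in the 11 other libraries. Gstz1 of chromosome 12, which isomerises maleylacetoacetate in tyrosine breakdown, ranged from 0.632 to 24.8 Mb, and Gsta3 of chromosome 1 from 0.289 to 3.86 Mb.

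Of the single Sult genes, Sult1a1, the main phenol sulfotransferase of liver, stood 17.8 to 31.4 Mb from a LAD, and Sult5a1 9.66 to 20.7 Mb. Sult4a1, a brain member with no settled substrate, was 2.19 to 12.8 Mb away, and Sult6b2 3.24 to 30.7 Mb. Sult2b1, which sulphates cholesterol and pregnenolone, was 1.27 to 6.84 Mb away, and Sult6b1 0.684 to 1.53 Mb. The sulfotransferases thus included both the genes most often in LADs and the 2 transferase genes with the largest median distances, Sult5a1 (20.0 Mb) and Sult1a1 (17.9 Mb).

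Other genes of conjugation were looked up from a list of 49, of which 48 were autosomal protein-coding genes of the annotation. They make the sugar and sulphate donors, make and recycle glutathione, carry conjugates out of the cell or control phase II genes. Of the 48, 3 (6.25%) were inside a LAD in at least 1 library, beside the 17.1% of all genes, and 0 were inside in every library. Ugt8a (chr3:125865271-125938619), which makes galactosylceramide, was inside in both mice of CT0, in both of CT24 and in CT18 mouse 1. Hpgds (chr6:65117293-65144908), the glutathione-dependent prostaglandin D synthase, was inside in NS mouse 1, CT18 mouse 1, CT18 mouse 2, CT24 mouse 1 and CT30 mouse 1. Nat1 (chr8:67480921-67492104), an arylamine acetyltransferase, was inside in CT24 mouse 1. Their median distances were 0.156, 0.468 and 1.17 Mb. Of the 48, 0 were called in the test of distance between CTs after Benjamini-Hochberg adjustment by the exact permutation test, and 1 had an unadjusted p under 0.05.

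Cytochrome P450 and serpin genes, which also form clusters expressed in liver, gave a scale for these values. Of 100 cytochrome P450 genes 11.0% were inside a LAD in at least 1 library, and of 60 serpin genes 25.0%, against 12.5% of the transferase genes. The pairs of gene and library inside a LAD made up 1.21% for cytochrome P450 and 3.69% for serpin genes, against 2.12%. The median of the median distances was 3.44 Mb for cytochrome P450 and 5.96 Mb for serpin genes, both larger than the 1.53 Mb of the transferase genes. No test was made of these differences between gene lists.

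The base composition around the genes differed between the families. In windows of 100 kb centred on the start site, the median GC content was 42.6% for the transferase genes and 44.5% for all genes. It was 39.4% for Ugt and for Sult genes and 46.6% for Gst genes. The 8 transferase genes inside a LAD in some library had a median of 40.3%, beside 39.4% for all genes inside a LAD in some library and 45.5% for all genes in none. The value was 37.0% for Sult1d1, 39.4% for Sult3a2, 41.2% for Sult1c1 and 46.5% for Gsto1, so the Gsto pair, whose LADs were seen in the libraries with the widest bins, was the richest in GC of the 4 clusters. Around the transferase genes a median of 35 protein-coding genes started within 1 Mb, beside 30 for all genes.

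In the 250 bases before the start site, 56 of the 64 genes had a RefSeq promoter and 15703 of all genes did. The RefSeq start site lay within 50 bases of the GENCODE one for 44 of the 56, and up to 25057 bases away (Sult2b1) for the others. The shares below thus partly describe other start sites than those used for the LAD distances. The median share of A and T was 56.4% for the transferase genes and 43.6% for all genes. A run of at least 6 A or T was found in 80.4% of the transferase promoters and 61.3% of all, with a median of 3 and 1 runs. On both strands, the E-box CACGTG, the letters bound by CLOCK and BMAL1, was found in 0 of 56 transferase promoters and 6.83% of all. The TATA box TATAAA, which overlaps the A or T runs, was found in 11 (19.6%) and 12.0% of all. Sult1c1 has it 173 bases before its start site. The repeat GAGAGAGA was found in 3 (5.36%), those of Sult2a8, Gstt1 and Gstp1, and in 2.67% of all. A match in this window is a description of letters and not of a bound site.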

How the data were processed

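LMNB1 ChIP-seq was done on liver of 2 mice per time point. Per the labels and methods, the authors mapped ChIP and input reads to mm10 with Bowtie (version given as 2.25.0), removed duplicates with Picard, down-sampled each pair of ChIP and input per chromosome, ran EDD 10 times per library and called LADs with the averaged settings. The deposited files hold the start and end of each LAD in base pairs, with no score, signal or count. Of 2845 LADs, 30 touching pieces were joined to their neighbour and 0 ended beyond a chromosome. Bin width was read as the largest number of kb dividing the LAD starts, without the 82 starts off a whole kb.

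Genes were the autosomal protein-coding genes of GENCODE vM21 on GRCm38.p6. Distances in kb were tested as log10(distance + 10) by the F ratio between 6 CTs, with an exact permutation test and Benjamini-Hochberg adjustment over 20807 genes, in Python 3.11.15 with NumPy 2.4.6 and pandas 2.3.3. The test of distance was checked on simulated data, and the test of state was not. Named genes were those in a LAD in any library, the nearest and farthest of each cluster of 3 or more genes, the 3 smallest p-values, listed pathway genes in a LAD and the flanking genes of clusters with a member in a LAD. Sult2a5, the genes of clusters of 1 and the members counted in a contrast were named after their values were seen, to account for all members. The members and lists were chosen with earlier results of these data known. Alternatives were other libraries, LAD lengths, definitions of inside, scales and covariates, a replicate block and leaving out each library. Inputs, RNA-seq and protein sequences were not analysed here.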

Additional observations from a re-analysis of the deposited data

How the results depend on the processing

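Of the main counts, 305 recomputed values stayed within 1.5 times and 21 moved. Among the 305 are intersects and contrasts recomputed with a library of another time point left out. These could not move, so the 305 cannot be read as a measure of stability. The number of transferase genes inside a LAD in at least 1 library, and in some but not all, was 5 with only the libraries whose deposited name is numbered 1, 5 with only those numbered 2 or 3, and 13 where a start site up to 61 kb (the widest bin) from a LAD counted as inside. The 5 genes added by this tolerance were Ugt2b34, Ugt2a1, Sult1b1, Gstk1 and Sult2a7. The count summed over libraries went from 19 to 10, 9 and 35. With the union of both mice in place of the intersect, the count was 4 for CT0, CT12 and CT24, 2 for NS and CT18, and 1 for CT6 and CT30. The intersect at CT18 held 0 with LADs of at least 1 Mb and 2 with the tolerance, that at CT24 held 1 by gene body and 2 with the tolerance, and that at CT6 held 1 with the tolerance. With LADs of at least 1 Mb, Sult1d1 and Sult1e1 were inside in 0 libraries. The causes of these changes were not tested, beyond the fewer libraries, the shorter LADs left out or the wider margin that define each. Apart from the union, whose shares are given above, the share of all genes inside or near a LAD was not recomputed for these settings. The same holds for single libraries left out. Whether the rise to 13 is particular to the transferase genes can therefore not be told.

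Leaving out each library in turn gave 8 to 8 genes inside in at least 1 library, 17 to 19 summed over libraries and 0 to 2 genes within 1 Mb in every library. The calls between CTs stayed at 0 for distance and 0 for state, with 619 to 2415 and 34 to 117 genes at an unadjusted p under 0.05 and a lowest adjusted p of 0.111 to 1. The unadjusted p was 0.0171 to 0.132 for Sult2a4, 0.0159 to 0.124 for Sult2a3 and 0.00789 to 0.0577 for Sult2a2.

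Replicate numbers 1 and 2 recur at each time point. Over 21 pairs of time points, the correlation of same-numbered deviations was -0.116 to 0.521 (median 0.0402) and 7 exceeded 0.1, so the numbers were not taken to pair the mice. With the replicate number as a block, 0 genes were called (lowest adjusted p 0.413, 1072 genes at an unadjusted p under 0.05), and 3 transferase genes had an unadjusted p under 0.05, namely Sult2a4, Sult2a3 and Sult2a6. After removing a line on log2 bin width these numbers were 1918 and 8. Depth cannot be read from the intervals, so what it limits could not be measured.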
